A study of Mus musculus with 4 samples.

Results

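The mesothelial genes examined here were Wt1, Msln, Upk3b, Upk1b, Lrrn4, Muc16, Aldh1l2 and Tgm1. They were taken as a named set of 8 among 21887 protein-coding genes, and the rule used no peak values. The members were, however, chosen with earlier results of these data known. The assay was ATAC-seq, where a transposase cuts and tags DNA that is not packed away. The 4 libraries were made from wild-type lungs of mouse embryos at E15.5. The 4 libraries formed 1 group, so there was no contrast between conditions and no test between groups. Per the labels, lungs were snap-frozen and 60000 nuclei were tagmented. Separate embryos were not named as the source of the replicates. Spread over libraries may therefore be technical.

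The mesothelium is the flat cell layer that covers the lung surface and lines the pleural cavity. In the embryo it expresses the zinc finger transcription factor WT1, and it is known as a source of growth signals for the tissue beneath and of some mesenchymal cells. Several genes that mark it encode surface proteins, among them mesothelin and the mucin that binds it. Whole lung holds few mesothelial nuclei beside those of mesenchyme, epithelium and endothelium. In such bulk tissue, a site open in few nuclei and a site weakly open in many cannot be told apart. Many of these genes are also used in other epithelia, so a peak does not assign the site to mesothelium.

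The lists held 134503, 186199, 211678 and 192842 peaks on assembled chromosomes in replicates 1 to 4. Replicate 1 stood apart, with the shortest list and a median fold of 8.99 against 3.73 to 3.90 in the others. Fold is the authors' enrichment at the summit over background, and it was used only to rank peaks within their own list. A percentile of 90 thus means that the peak outranked about 90% of its list. The names given to peaks held a French term for fresh material in replicate 1 and the term frozen in the others, whereas the labels described frozen lungs throughout. With 1 such library, this difference and the library itself cannot be told apart. All 8 genes of a lung check list, among them Nkx2-1, Foxf1, Tbx4 and Hoxa5, had a gene-end peak in every library. Of 8 liver secreted products, 1 did, beside 60.5% of all protein-coding genes. The lists were chosen with earlier results of these data known, so these counts are a description and not an independent check.

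A gene end was called when every library had a peak summit within 1 kb of either annotated end of the gene. Of the 8 mesothelial genes 6 were called, namely Wt1, Msln, Upk3b, Upk1b, Aldh1l2 and Tgm1, which is 75.0% beside 60.5% of all protein-coding genes. Lrrn4 had such a peak in 3 libraries and Muc16 in 1. None of the 8 lacked a gene-end peak in every library, as 23.6% of all genes did. With a set of 8, a difference of 1 gene moves the share by 12.5 percentage points, so the count stood near the background.

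The gene-end peaks of the 6 called genes were of moderate rank. Their mean percentiles over libraries ran from 53.2 in Msln to 91.3 in Aldh1l2, with a median of 82.1. The median over all 13244 called genes was 94.3, and each of the 6 lay below it. Replicate 1 gave the lowest of the 4 percentiles in all 6. It did so in 87.2% of all called genes too, so the low values of that library were not particular to the set.

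**Figure D1:**
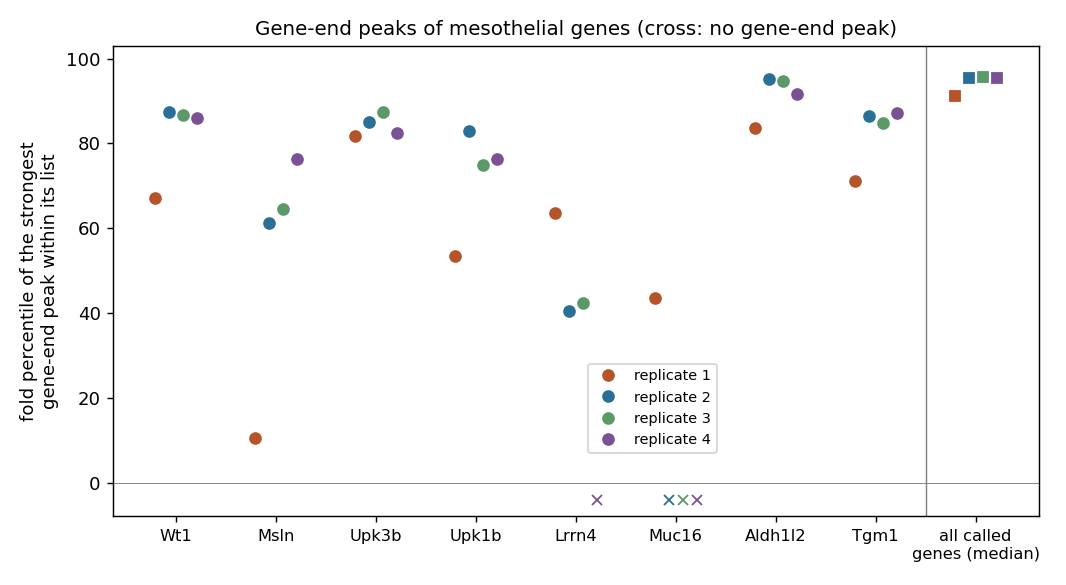
Fold percentile of the strongest gene-end peak (y axis, percentile within the library's own list) for each of the 8 genes in replicates 1 to 4 (points). Crosses mark libraries with no gene-end peak, and squares give the median of all called genes in each library, from 91.1 in replicate 1 to 95.7 in replicate 3.

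Wt1, the transcription factor of the set, lies on chromosome 2 (105126529 to 105173614, mm10). Its strongest gene-end peak ranked at the 67.2, 87.4, 86.8 and 86.0 percentile in replicates 1 to 4, with deposited folds of 14.5, 9.94, 8.08 and 8.09. Replicates 2 to 4 lay close together and replicate 1 lay lower, giving a mean of 81.9 ± 9.77 (SD, n = 4). The 4 summits fell 20, 44, 39 and 100 bp from the lower-coordinate end of the gene. The long non-coding RNA gene Wt1os ends 19 bp from that same point, so the peak sits at the ends of both genes. Both could share it, and the lists hold no strand.

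Inside Wt1, regions open in all 4 libraries were found about 4 and 8 kb above that end. The nearer one, at 105130023 to 105130829, ranked at 75.5 ± 10.3 (SD, n = 4), and its peaks were at 61.1, 76.7, 79.0 and 85.3. The farther one, at 105134037 to 105134814, ranked at 72.6, 89.1, 87.4 and 76.4. Its mean of 81.4 ± 8.13 lay within 1 SD of the 81.9 at the gene end. In 3 of 4 libraries the strongest body peak outranked the strongest gene-end peak of Wt1. Exon and intron borders were not used here. Around the gene, 8 further regions were open in all libraries, and the 4 that lay in no other protein-coding gene ranked from 47.1 to 71.6 on average.

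The neighbourhood of Wt1 was sparsely filled with genes, with 1 other protein-coding gene, Them7, within 100 kb. It held 25, 19, 23 and 22 peaks in replicates 1 to 4, against all-gene medians of 17, 26, 31 and 28. Wt1 thus stood above the median in replicate 1 and below it in the others. Its 11 regions open in all libraries put it at the 54.4 percentile of all genes for such regions per 100 kb. With peaks limited to a q of 1e-05 or less, 5 such regions were left.

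Msln, on chromosome 17 (25748613 to 25754378), encodes mesothelin, a surface protein held by a lipid anchor. Its gene-end peaks were weak and variable, at percentiles of 10.5, 61.2, 64.6 and 76.4, a mean of 53.2 ± 29.2 (SD, n = 4). The summits of these peaks lay 841, 821, 965 and 669 bp inside the gene from its lower-coordinate end. Mslnl, its neighbour and relative, ends 259 bp beyond that end. A stronger region lay in the gene body about 3 kb above the lower end, at 25750787 to 25752723. It ranked at 60.2, 83.8, 85.5 and 88.7, above the gene end in every library. Another region spanned the upper end of Msln, at 25753948 to 25757834, and ranked at 89.6 ± 5.72 with its strongest summits outside the 1 kb window. With a window of 2.5 kb the gene-end percentile of Msln was accordingly 89.6.

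Muc16, on chromosome 9 (18495445 to 18674821), encodes the large mucin known as CA125, which binds mesothelin. It was the least open gene of the set. Replicate 1 had a gene-end peak, at the 43.5 percentile with its summit 138 bp beyond the upper end, and replicates 2, 3 and 4 had none. No library had a peak in the rest of the gene, although it spans 179377 bp. Within 100 kb the libraries held 3, 2, 2 and 3 peaks in all. The regions open in every library numbered 2. The stronger, at 94.3 ± 2.54, lay inside Zfp558, and the other, at 78.4 ± 5.63, lay 47.4 kb above the gene. This put Muc16 at the 15.4 percentile of all genes.

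The uroplakins are membrane proteins best known from the bladder lining. Upk3b, on chromosome 5 (136038496 to 136044993), had the steadiest gene-end peak of the set, at 81.8, 85.0, 87.4 and 82.6. Its mean was 84.2 ± 2.53 (SD, n = 4), and the summits lay 38, 30, 85 and 8 bp from the lower end, which is the start site in the promoter table. The gene body added regions open in all libraries at 136039892 to 136040643 and at 136040946 to 136042578, which ranked lower, at 66.7 ± 2.79 and 64.7 ± 8.19.

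Upk1b, on chromosome 16 (38773182 to 38800203), was open at its upper end in every library, at 53.3, 83.0, 75.0 and 76.4. These summits lay 85, 65, 61 and 144 bp beyond the end. The strongest site of the gene was elsewhere, in the body 2.3 kb above the lower end, at 38774837 to 38776623. It ranked at 92.8, 89.7, 91.7 and 90.2, a mean of 91.1 ± 1.43 (SD, n = 4), with the least spread of the gene-body sites named here. It stood above the gene end in every library. A body region at 38792833 to 38793765 varied far more, from 85.0 in replicate 2 to 8.73 in replicate 4.

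Other uroplakin genes were open too. Upk1a, Upk2 and Upk3a were called, with gene-end percentiles of 94.6 ± 4.36, 90.7 ± 5.34 and 75.8 ± 17.2 (SD, n = 4). Upk1a and Upk2 thus had higher means than Upk1b (71.9 ± 12.9) and Upk3b, although they are not among the genes that mark mesothelium. The SD ranges of Upk2 and Upk3b overlapped, as did those of Upk3a and Upk1b.

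Lrrn4, on chromosome 2 (132866686 to 132894010), encodes a membrane protein with leucine-rich repeats. Its gene-end peaks ranked at 63.6, 40.6 and 42.3 in replicates 1 to 3, and replicate 4 had none. All 3 summits lay within 67 bp of the upper end. The strongest region was in the gene body at 132879030 to 132880157, with percentiles of 72.2, 86.1, 84.7 and 82.6. The start site that the promoter table gives for Lrrn4, 132880862, lies in the middle of the annotated span, near this region rather than at an end. Peaks covered that start in replicates 1, 3 and 4. The windows at the gene ends therefore miss the start listed for Lrrn4.

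Aldh1l2, on chromosome 10 (83487447 to 83534146), encodes a mitochondrial enzyme of folate metabolism. It had the highest gene-end peak of the set, at 83.6, 95.1, 94.8 and 91.6, a mean of 91.3 ± 5.37 (SD, n = 4). Summits lay 7, 31, 80 and 29 bp inside the upper end. There was no peak in the gene body in any library. Its surroundings held 7, 12, 16 and 7 peaks, below the all-gene median in every library. Of its 4 regions open in all libraries, 1 was its own gene end and 1 lay at the end of Washc4. Its relative Aldh1l1 was called at 68.6 ± 11.7.

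Tgm1, on chromosome 14 (55700009 to 55713921), encodes a transglutaminase that cross-links proteins in the outer skin. Its gene-end peaks ranked at 71.2, 86.5, 84.7 and 87.2, a mean of 82.4 ± 7.56 (SD, n = 4), with replicate 1 lowest. The gene body held no peak in replicate 1 and 4, 7 and 5 peaks in replicates 2 to 4. These body peaks were weaker than the gene end in each of those libraries, the strongest at 61.2, 58.9 and 61.5. Among its relatives, Tgm2 ranked at 92.6 ± 4.45 and Tgm3 lacked a gene-end peak in all 4 libraries.

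The promoter sequences available from RefSeq (GRCm38.p6) covered Upk3b, Lrrn4, Muc16 and Tgm1, with 5 start sites in all because Tgm1 has 2. They are shown because these starts ranged from open in every library to open in none. Each is the 250 bases before the start, 5′ to 3′ on the gene's strand, with GGAATG or its reverse complement CATTCC in capitals. Upk3b is chr5:136038246-136038495 (plus strand), Lrrn4 chr2:132880863-132881112 (minus strand), Tgm1 chr14:55713493-55713742 (minus strand, the upstream start) and Muc16 chr9:18674604-18674853 (minus strand).
Upk3b: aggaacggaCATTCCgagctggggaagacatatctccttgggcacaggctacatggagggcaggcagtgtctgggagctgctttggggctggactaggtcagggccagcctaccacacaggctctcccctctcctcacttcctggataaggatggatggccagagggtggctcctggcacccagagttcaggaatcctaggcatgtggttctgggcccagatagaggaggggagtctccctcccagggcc
Tgm1: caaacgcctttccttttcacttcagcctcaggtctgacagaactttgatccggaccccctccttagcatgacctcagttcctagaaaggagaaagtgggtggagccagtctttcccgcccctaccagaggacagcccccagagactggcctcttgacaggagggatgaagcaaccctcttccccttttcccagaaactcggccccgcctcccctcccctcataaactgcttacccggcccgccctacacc
Lrrn4: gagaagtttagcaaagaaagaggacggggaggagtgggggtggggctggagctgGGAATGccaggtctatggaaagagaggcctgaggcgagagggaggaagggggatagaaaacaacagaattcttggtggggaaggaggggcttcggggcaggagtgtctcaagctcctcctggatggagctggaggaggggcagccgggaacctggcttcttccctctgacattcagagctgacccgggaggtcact
Muc16: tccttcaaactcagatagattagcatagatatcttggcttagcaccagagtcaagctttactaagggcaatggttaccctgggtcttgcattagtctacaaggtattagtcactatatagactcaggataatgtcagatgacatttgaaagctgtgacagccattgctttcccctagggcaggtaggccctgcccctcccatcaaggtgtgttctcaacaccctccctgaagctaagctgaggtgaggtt

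Of the 4 starts printed, those of Upk3b and Tgm1 were covered by a peak in every library, that of Lrrn4 in 3 libraries and that of Muc16 in none. Over all 32851 start sites of the table, 46.0% were covered in every library. The windows of 300 bases, which run 50 bases past the start, held 2 CG pairs in Upk3b, 12 at this start of Tgm1, 7 in Lrrn4 and 1 in Muc16, against a median of 7. Upk3b was thus open in every library with few CG pairs. Of 7656 starts with at most 2 CG pairs, a limit set after seeing Upk3b, 4.40% were covered in all 4 libraries. The other start of Tgm1, at 55713088, was covered in 3.

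Letters known as binding motifs were sought on both strands of the 5 windows. GGAATG, the core bound by TEAD factors, occurred at Lrrn4 and Upk3b, beginning 196 and 241 bases before the start. It was also present in 14.7% of all windows. CCAAT, bound by NF-Y, occurred at the other start of Tgm1, and 37.4% of all windows held it. CGCG occurred after the start at Lrrn4 and at the upstream start of Tgm1, and 38.0% of all windows held it. None of the 5 held GCGTGGGAG, letters bound by WT1 and EGR factors, which 0.472% of all windows held. None held the AP-1 letters TGANTCA, present in 7.81% of all windows, or the homeodomain letters TAATTA, present in 5.29%. The same was true of AGATAA, bound by factors of the GATA family and present in 11.2%, and of the TATA box letters TATAAA, present in 13.6%. A match is only a run of letters, and an absence concerns only these windows.

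Body sites that outranked the gene end were seen in several members. A body peak was present in every library in 5 of 8 genes, beside 44.0% of all genes. In Msln, Upk1b and Lrrn4 the strongest body peak outranked any gene-end peak in every library, Lrrn4 having none at its ends in replicate 4. That is 3 of 8 genes (37.5%), beside 16.7% of all protein-coding genes. Among genes with both kinds of peak in every library it was 2 of 4 members, Msln and Upk1b, beside 19.2%. In Upk3b, and in Tgm1 where it had body peaks, the gene end was higher. With windows of 2.5 kb, 1 of 8 members kept this order, Lrrn4, beside 2412 of all 21887 genes. The start listed for Lrrn4 lies in its body near the strong site, so its order does not set that site against the start. In Upk1b the body site itself counted as a gene end with these windows. In Msln the body site stayed in the body. The region spanning its upper end came to count as a gene end, at 89.6, and outranked it. With windows of 1 kb, the order held in 4 of 8 endothelial, 3 of 8 macrophage and 1 of 8 lung check genes. It held in 3 of 18 other genes known from mesothelium and 2 of 10 regulators linked to coelomic linings or to WT1. Of the 12 relatives, 8 type II products and 8 liver products, 0 had it. The order was thus not particular to the members. The set is too small for these shares to separate it from other genes, and no test was made.

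**Figure D2:**
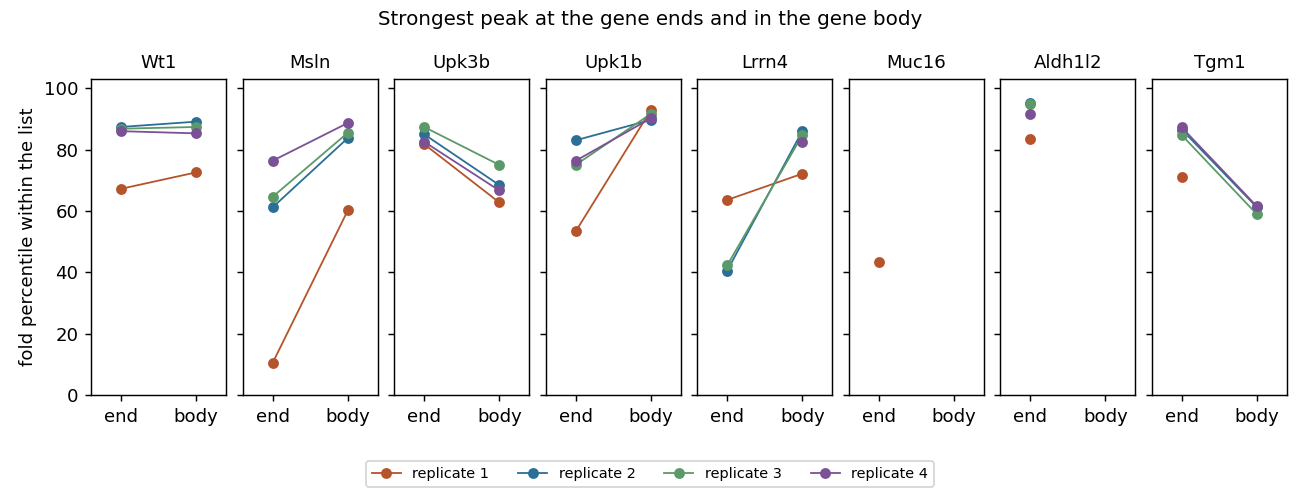
Fold percentile within the list (y axis) of the strongest gene-end and gene-body peak of each gene, joined by a line per replicate. The lines of Msln, Upk1b and Lrrn4 rise towards the body and those of Upk3b and Tgm1 fall, while Muc16 and Aldh1l2 had no body peak.

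Counted over the whole reach of 100 kb on either side, the set drew 163, 268, 335 and 288 peaks in replicates 1 to 4. Of these, 10, 12, 12 and 10 lay at the members' own ends and 15, 23, 30 and 25 in their bodies. The remaining 138, 233, 293 and 253 lay outside the genes. Gene-end counts hardly varied between libraries, whereas the sums of outside counts ranked as the lists did by length. They were not in proportion, as the set drew 12.1, 14.4, 15.8 and 14.9 peaks per 10000 in replicates 1 to 4. Single genes could differ, and Wt1 had 19, 13, 16 and 16 outside peaks, the most in the shortest list. Upk3b had 27, 71, 88 and 74 peaks and Tgm1 29, 64, 73 and 66, the most and the next most in replicates 2 to 4. Upk1b, with 32, 33, 46 and 43, had the most in replicate 1. Msln had 26, 47, 61 and 56, and Lrrn4 14, 20, 26 and 17. Upk3b, Tgm1, Msln and Upk1b exceeded the all-gene median in every library, and Lrrn4, Muc16 and Aldh1l2 fell below it in every library.

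**Figure D3:**
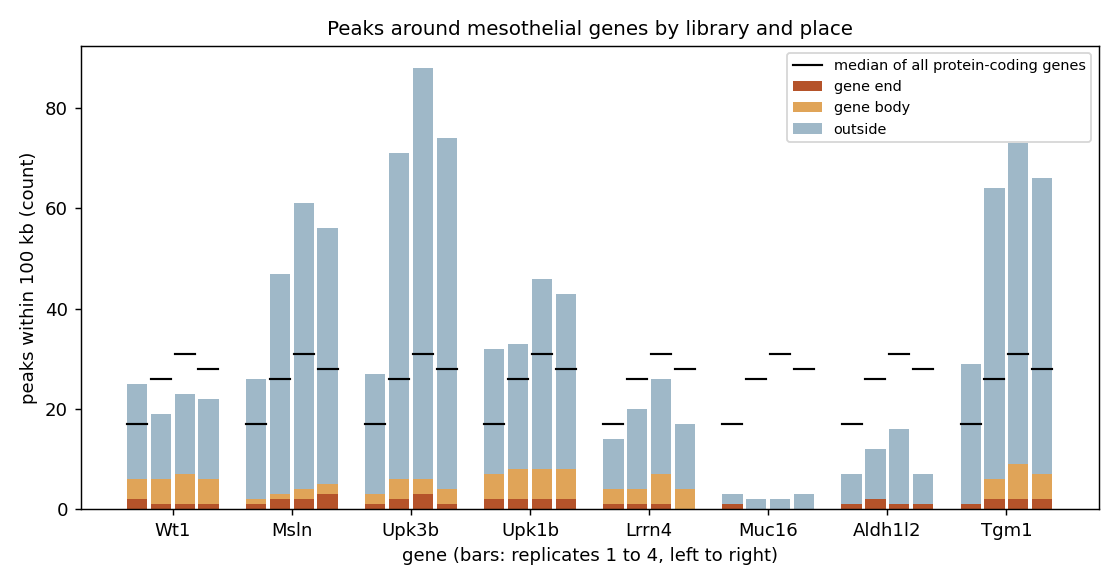
Peaks within 100 kb of each gene (y axis, count) in replicates 1 to 4 (bars, left to right), divided into gene end, gene body and outside. Black lines mark the all-gene median of each library, 17, 26, 31 and 28. Muc16 never exceeded 3 peaks, and Upk3b reached 88 in replicate 3.

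Peaks of the libraries that overlapped or adjoined were merged, and 99 merged regions near the members held a peak of every library. Upk3b had 21, Tgm1 18, Upk1b 17, Msln 16, Wt1 11, Lrrn4 10, Aldh1l2 4 and Muc16 2. The median of 13.5 stood beside 10 for all genes. Without replicate 1 the numbers rose to 36 at Upk3b, 30 at Tgm1 and 25 at Msln. Without replicate 4 they were 22, 19 and 17, and without replicate 2 they were 21, 18 and 16. At Upk3b, Tgm1 and Msln the requirement of a peak in replicate 1 thus kept most of the added regions out. Upk1b, Wt1 and Lrrn4 had 22, 13 and 13 without replicate 1, and 17, 12 and 12 without replicate 4. Aldh1l2 had 4 without replicate 1 and 6 without replicate 4, and Muc16 kept 2 in both. Which trait of replicate 1 lay behind the rises was not tested.

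Most of these regions lay outside the members, and many lay at the ends of neighbouring genes. A region was placed by the midpoint between its strongest summits. Outside the members lay 83 of the 99 regions, and 35 of those were within 1 kb of an end of another protein-coding gene. Counting the members' own ends, 41 of 99 regions (41.4%) were at a gene end. Of the 66190 regions open in all libraries it was 19.1%. The shares are not alike in basis, because the 99 were taken around genes and the 66190 from anywhere on the chromosomes. The difference therefore cannot be read as a trait of the set, and no share around all protein-coding genes is given beside it. Regions at neighbours' ends had a median percentile of 91.5, those at the members' own ends 82.1, those in member bodies 71.1 and the other outside regions 71.2. Tgm1 was the clearest case, with 18 other genes within 100 kb and 13 of its 18 regions at their ends. Beyond gene ends it had 4 regions, which put it at the 40.3 percentile of all genes instead of the 87.6 percentile. Msln, with 17 other genes, fell from 16 regions to 8 and from the 83.3 to the 68 percentile. Upk3b and Upk1b kept 15 and 13 regions placed away from gene ends, at the 93.5 and 85.3 percentile. Some wide regions reached a gene end although their midpoint did not. Counting only regions whose whole span lay over 1 kb from every end left 12 at Upk3b, 12 at Upk1b, 6 at Msln and 3 at Tgm1. Both restrictions were chosen after the data had been seen.

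**Figure D4:**
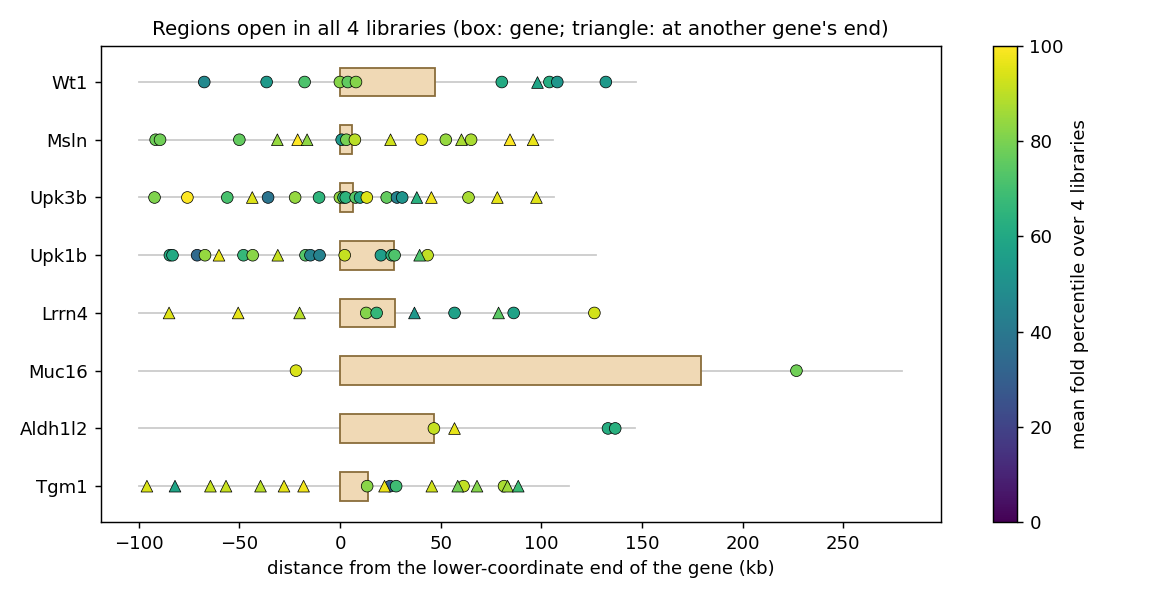
Regions open in all 4 libraries around each gene, by distance in kb from the lower-coordinate end of the gene (x axis), with the gene as a box. Colour gives the mean fold percentile over 4 libraries, and triangles lie within 1 kb of another gene's end. Tgm1 shows 13 triangles, and Muc16 has 2 regions in all, neither inside its long box.

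Regions placed away from gene ends differed in strength. Near Upk3b the strongest, at 135955539 to 135968838, ranked at 99.96 ± 0.00522 (SD, n = 4) but lay 75.8 kb away inside Ssc4d, and its width of 13300 bp covered an end of that gene. Nearer to Upk3b, a region 6.83 kb above the gene, at 136051155 to 136056360, ranked at 94.2, 93.1, 95.4 and 96.6. Its midpoint lay in no protein-coding gene, and its upper edge came within 1 kb of an end of Upk3bl. Near Upk1b a region 16.5 kb above the gene, at 38816192 to 38817637 inside Tex55, ranked at 90.4 ± 1.88. Near Lrrn4 a region 99.1 kb above the gene, at 132992490 to 132993694, ranked at 93.2 ± 1.55 and lay in no protein-coding gene. Near Wt1 the strongest, 17.6 kb below the gene at 105108748 to 105109186, reached 71.6 ± 5.40. It lay in no protein-coding gene but inside the long non-coding RNA gene Wt1os. Which gene any of these sites serves was not measured.

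Other genes known from mesothelium gave a like picture at gene ends. Of 18 such genes 13 were called (72.2%, beside 60.5% of all genes), with a median percentile of 82.8 over those called. Nkain4 was highest at 99.4 ± 0.28 (SD, n = 4), and Krt19, a keratin of simple epithelia, ranked at 95.6 ± 3.03. Dmkn lacked one in all 4 libraries. Krt18 had 18 regions open in all libraries, the most of that list. Aldh1a2, which makes retinoic acid, ranked at 72.2, 86.5, 83.9 and 88.7. Among regulators linked to coelomic linings or to WT1, 8 of 10 were called, with a median of 94.5. Gata6 reached 98.6 ± 0.64, Wwtr1 reached 98.3 ± 0.39, and Tead1 had 41 regions open in all libraries. These regulators are also used by other lung cells.

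Marker lists of other cell types were set beside the members. Of 8 genes each, 7 mature alveolar type II products, 4 endothelial genes, 1 macrophage gene and 1 liver product were called. These stood beside 6 of the 8 mesothelial genes and 60.5% of all protein-coding genes. The called genes had median percentiles of 88.6 for the type II products and 79.2 for the endothelial genes, beside 82.1 for the members. Spi1 was the called macrophage gene and Apoa1 the called liver product. Regions open in all libraries had a median of 14 for the type II products, 10.5 for the macrophage genes and 5 for the liver products, against 13.5 for the members. The endothelial median was the highest of these lists and above that of the members. These are lists of 8 genes, and the differences were not tested.

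**Figure D5:**
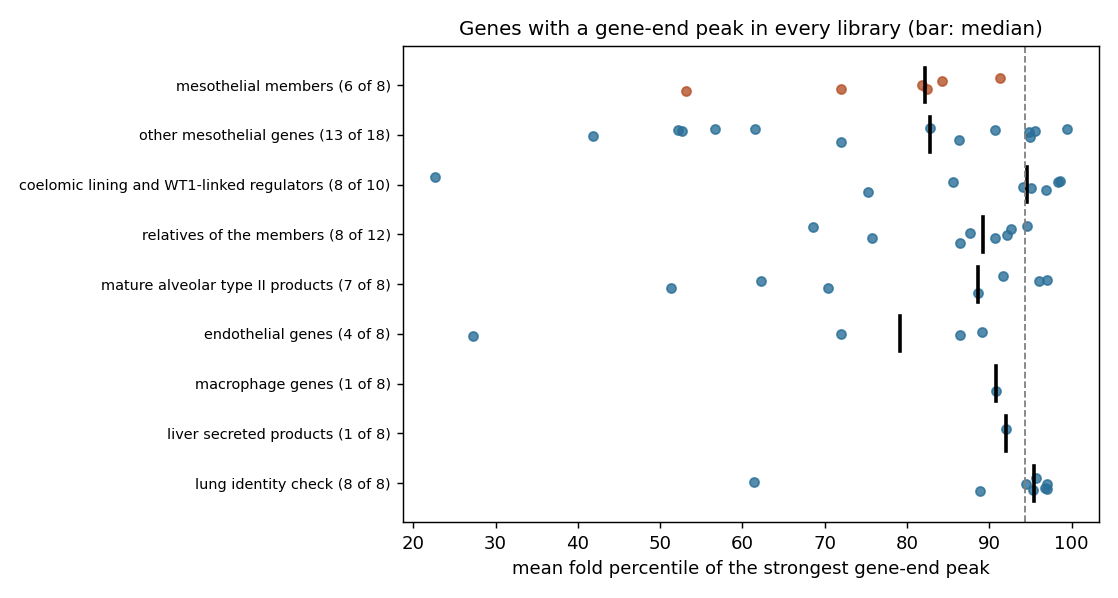
Mean fold percentile of the strongest gene-end peak (x axis) for genes called in every library, by list, with the numbers called and listed in brackets. Short bars are list medians and the dashed line is the median of all called genes, 94.3. All 6 called members lie left of that line.

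Other genes were ranked by likeness to each member over 8 values, the gene-end percentile and the peaks within reach per 10000 peaks in each of the 4 libraries, each ranked among all genes and with a missing gene-end peak set to 0. The distance was Euclidean. Genes starting within 1 Mb of the member were left out. The closest to Wt1 were Col4a3, Aldh1a2 and Col4a4, at distances of 7.17, 7.54 and 7.98 percentile points. Col4a3 and Col4a4 had equal gene-end percentiles in every library. The closest to Upk3b were Tstd1, Wnt4 and H2-T24, at 11.3, 11.9 and 12.7. The closest to Muc16 were Olfr687, Olfr1432 and Treml2, at 5.37, 5.93 and 6.41. For the other members only the nearest gene is given. It was Npdc1 for Msln (6.95), Dll3 for Tgm1 (7.57) and Prnd for Upk1b (9.56). For Lrrn4 it was Gm1123 (12.0) and for Aldh1l2 it was Acad9 (12.8).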

How the data were processed

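The deposited data were 1 narrowPeak list per library, made from ATAC-seq of wild-type E15.5 lung. Per the submitters' processing notes, the build was mm10 and the tools included MACS3 3.0.1 and Bowtie2 2.5.2, with bedtools 2.31.0 and SAMtools 1.18. Their roles and parameters, duplicate removal and the Tn5 shift are not given in the sources used here. The deposited fold is a ratio of summit signal to background within a library. The deposited −log10 q of the summit was used for 1 alternative, while the −log10 p and the deposited score were not used. Read depth is unknown, so no counting intervals are given.

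Only assembled chromosomes were used, which left out 1245 to 1814 peaks per list. Each peak was placed by its summit, from 100 kb before to 100 kb after a gene, as gene end (within 1 kb of either end), gene body or outside. Percentiles are ranks of fold within a list. Merged regions with a peak of every library were called shared and placed by the midpoint of the strongest summits. Gene spans came from RefSeq on GRCm38.p6, the assembly that mm10 represents, and all 87 listed genes matched by symbol (Sftpc stands in both the type II and the lung check list). Strand was known only for genes in the promoter table, of which the members Upk3b, Lrrn4, Muc16 and Tgm1 were matched. All 8 members were named. From other lists, genes were named for high gene-end percentile, most shared regions or no gene-end peak, and relatives were also named beside their member after their values were seen. Members and lists were chosen with earlier results of these data known. Analyses used Python 3.11.15, numpy 2.4.6, pandas 2.3.3 and scipy 1.17.1, and the counting was tested on simulated peaks. With 1 group, no test was made, and alternatives are given in the closing section.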

Additional observations from a re-analysis of the deposited data

Results flagged for a closer look

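Of 19 sets of 4 library values checked for a value far from the other 3, 5 stood out, each time replicate 1. Chance gives about 1 in 20, but these sets share the same 4 libraries and are not independent. No share over all genes is given beside them. The gene-end percentile of replicate 1 was 67.2 at Wt1 and 71.2 at Tgm1, the lowest of the 4 at each. Replicate 1 was also the lowest in 87.2% of all called genes. Per 10000 peaks of the list, it had 1.86 peaks around Wt1, the highest of the 4, and 2.01 around Upk3b and 2.16 around Tgm1, the lowest of the 4. Replicate 1 also had the shortest list and the highest median fold, and its peak names carried the word for fresh. The part of these in the values was not tested.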

How the results depend on the processing

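The number of members called at a gene end was 6 and stayed between 5 and 7 under the alternatives that kept gene ends. It was 5 with a q of 1e-05 or less and with 0.5 kb windows, Msln being lost in both, and 7 without replicate 4 or with at least 3 of 4 libraries, Lrrn4 being added in both. Leaving out each library gave 6 to 7. Counting start sites of the promoter table instead, an alternative added after seeing the data, gave 2 of the 4 members it holds, Upk3b and Tgm1. The share of all protein-coding genes called, 60.5%, was 56.5% with a q of 1e-05 or less, 50.1% and 70.1% with windows of 0.5 and 2.5 kb, 67.0% when 3 libraries sufficed, and 66.7% when any overlapping base counted. Leaving out each library gave 61.3% to 64.2%. The median of shared regions over the members, 13.5, was 21 with at least 3 of 4 libraries and 7.5 within 50 kb, and 13.5 to 17.5 without each library in turn. Their median percentile among all genes, 67.9, was 62.2 to 67.9 without each library. With a q of 1e-05 or less, peaks were ranked again within the shorter lists, which lowers the percentile of a kept peak. The mean over libraries keeping a gene-end peak fell in 7 members, to 69.2 for Upk3b and 49.3 for Upk1b. In Lrrn4 it was 58.5 against 48.8, but the 58.5 came from replicate 1 alone. That library stood at 63.6 with all peaks, so the Lrrn4 value was no rise. With 2.5 kb windows Upk1b reached 91.1 because its body site then counted as a gene end. The members with a body peak above their gene ends, 3, were 1 with windows of 2.5 kb and 3 to 4 without each library. They were 2 when any overlapping base counted, Msln being lost. All alternatives for that count were added after seeing the data. For single members, a percentile was held against the SD over libraries and a number of regions against 1.5 times. By these measures 126 values stayed within and 33 did not, those of Muc16 included. Muc16 had a gene-end peak in 1 library, so it had no SD to hold its percentile against. The SD of Msln was 29.2, so its fall from 53.2 to 26.7 with a q of 1e-05 or less counted as within. No paired analysis was possible because there was 1 group of libraries. Read depth was unknown, so the absence of a peak says only that none was listed.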
